A study of Mus musculus with 50 samples.

Results

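The genes described here are those of enzymes that build, extend, cap and sulfate O-linked and related glycans: the GalNAc-transferases (Galnt), the core 1 and core 2 enzymes (C1galt, Gcnt), the B3gal, B4gal and B3gnt transferases, the sialyltransferases (St3gal, St6gal, St8sia), the fucosyltransferases (Fut) and the sulfotransferases (Chst). They were taken by symbol, as all spots annotated with a single gene whose symbol starts with one of these names, and 73 genes qualified of 13409 named genes on the larger of the 2 array platforms. On the smaller platform 73 of 13509 qualified. The count includes 12 Galnt, 14 Chst and 9 Fut genes, among them the pseudogene Fut4-ps1.

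The arrays compared the airways of mice under IL-13, a type 2 cytokine whose receptor acts through Stat6. The tissues were tracheal perfusate, 25 arrays of RNA flushed from the trachea, and whole lung, also 25 arrays. Each tissue had 5 groups of 5 arrays: IL-13 with Stat6+/-, IL-13 with Stat6-/- and the mark Epi+, IL-13 with Stat6-/-, ovalbumin (OVA, an allergen) and saline (PBS). Epi+ is known from published mice as a transgene that puts Stat6 back into the airway epithelium, but here it is a bare mark. The labels do not say whether IL-13 was given or encoded by a transgene, nor the Stat6 genotype of OVA and PBS animals, nor any age, strain or pooling of animals. Whether each array stands for its own animal is not said, so the p-values speak to variation among arrays that may be technical.

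Mucins carry sugar chains that start when a GalNAc-transferase joins GalNAc to serine or threonine in the Golgi. C1galt1 then adds galactose to make core 1, Gcnt enzymes branch it to core 2, and B3gnt and B4galt enzymes lengthen the branches. Sialyl-, fucosyl- and sulfotransferases finish the ends, and in the airway these ends set the charge of mucus and the ligands that leukocytes and microbes bind.

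The sequences just upstream of 4 members are printed, some chosen for the steadiness of their calls and some for a motif. Chst8 and Galnt7 kept their calls most steadily in one tissue each, and B4galt1 and Gcnt1 were the called members with a STAT-type motif in this window. Each is the 250 bases before a RefSeq transcription start (build GRCm38.p6, minus strand), read 5′ to 3′, with a motif TTCNNNGAA or TTCNNNNGAA in capitals. Both motifs read alike on either strand, and they differ in spacing, so a match of one is no match of the other.
B4galt1, chr4:40853985-40854234: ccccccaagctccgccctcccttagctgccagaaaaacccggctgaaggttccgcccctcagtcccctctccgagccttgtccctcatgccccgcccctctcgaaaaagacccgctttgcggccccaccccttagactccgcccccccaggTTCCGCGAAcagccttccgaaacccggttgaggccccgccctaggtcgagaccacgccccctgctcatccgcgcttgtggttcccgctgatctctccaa
Gcnt1, chr19:17356668-17356917: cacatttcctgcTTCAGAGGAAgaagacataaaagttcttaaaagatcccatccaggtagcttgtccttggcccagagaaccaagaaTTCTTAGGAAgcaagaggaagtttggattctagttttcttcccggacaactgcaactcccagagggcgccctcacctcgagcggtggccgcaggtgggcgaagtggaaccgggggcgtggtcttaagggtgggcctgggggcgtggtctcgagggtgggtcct
Chst8, chr7:34812712-34812961: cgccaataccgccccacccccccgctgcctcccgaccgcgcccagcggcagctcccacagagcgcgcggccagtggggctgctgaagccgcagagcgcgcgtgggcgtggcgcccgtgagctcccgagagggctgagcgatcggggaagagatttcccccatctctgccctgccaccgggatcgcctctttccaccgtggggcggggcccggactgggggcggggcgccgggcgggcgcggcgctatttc
Galnt7, chr8:57653056-57653305: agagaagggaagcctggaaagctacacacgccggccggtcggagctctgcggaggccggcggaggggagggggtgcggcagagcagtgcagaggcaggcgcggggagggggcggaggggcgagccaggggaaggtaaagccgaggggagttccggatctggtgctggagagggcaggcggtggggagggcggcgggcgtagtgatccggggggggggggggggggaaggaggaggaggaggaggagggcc

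The B4galt1 window holds 1 TTCNNNGAA whose first base lies 99 bases before the start. Gcnt1 has 3 start sites in the table, and the window shown holds 2 TTCNNNNGAA, 238 and 163 bases before its start. The windows of its other start sites hold neither motif. The table held 55 of the members, with 72 start sites. TTCNNNNGAA stood in 1 of these 72 windows (1.39%), against 5.85% of all 32851 windows of this length. TTCNNNGAA stood in 2 of 72 (2.78%), those of B4galt1 and B3galt5, against 7.02% of all windows. The members' windows had a median GC content of 60.8%, against 52.4% for all. A match is a run of letters and not a shown binding site.

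Levels are log2 ratios of the sample to a reference RNA, each array centred on its own median. A value can be compared between arrays of one tissue, platform and reference, and not between genes or tissues. In lung the OVA and PBS arrays were on the smaller platform with reference pool 2, and the IL-13 arrays on the larger with pools 3 and 4. Levels of those lung sets are not comparable. On Stat6-/- lung arrays B4galt5 averaged 0.45 with pool 3 and -1.26 with pool 4. Group ranges and overlaps given below mix pools 3 and 4 in the lung IL-13 arrays and 5 reference preparations in perfusate. The tests take these references as a block. The direction of the ratio is likely and not stated in the sources used here: Il13 was higher by 2.72 ± 0.21 (log2 difference ± SE) in IL-13 Stat6-/- perfusate than in PBS perfusate. Stat6 itself ranged between 0.10 and 1.28 on IL-13 Stat6+/- and between 0.33 and 1.32 on IL-13 Stat6-/- perfusate arrays, and in lung between -1.37 and -0.22 against -0.92 and -0.42, so its spot did not separate the genotypes (adjusted p 0.848 and 0.763). Whether that spot lies in a deleted stretch is not stated. The allele is therefore not checked by this spot. Il13 was itself lower in Stat6+/- than in Stat6-/- perfusate, with a difference of -0.99 ± 0.21 (adjusted p = 0.0118). Among Stat6-/- lung arrays, replicates 1 and 2 stood apart with low signal of the Y-linked genes Eif2s3y (-3.06 and -3.16 on its second spot) and Uty (-3.66 and -4.35). In perfusate, Stat6-/- replicates 10, 11 and 12 were low on the second Eif2s3y spot (-3.45, -2.11 and -1.93) but not on the first (0.52, 0.17 and 0.03) or on Kdm5d (0.25, 0.10 and -0.03). Uty was at -2.10, -0.95 and -0.93 on them, against -0.98 to 0.96 on the other perfusate arrays. Xist, the X-inactivation RNA of females, was higher on these 3 arrays (-0.09, 0.91 and -0.33) than on every other perfusate array (-5.70 to -1.36). The labels give no sex, and its part in the results was not tested beyond leaving these arrays out. Muc5ac, the main gel-forming mucin of goblet cells, was higher by 3.38 ± 0.29 in Stat6+/- than in Stat6-/- perfusate (adjusted p = 4.55e-06) and by 3.87 ± 0.49 in lung (adjusted p = 0.000527). All 6 mucous-cell markers, a list that includes Muc5ac itself, were higher in Stat6+/- perfusate, 5 of them called (1.09% of all features were called higher). Their mean level there ran from 0.92 to 2.06, against -0.77 to -0.14 on Stat6-/- arrays. In lung 4 of 5 macrophage markers were also higher in Stat6+/- animals, with a mean level of 1.44 to 3.32 against -0.42 to 0.18. In perfusate 0 of 5 were called. All 4 ciliated-cell markers tested were higher in Stat6+/- perfusate, 1 of them called, with a mean level of 0.21 to 0.99 against -0.56 to -0.00. All 4 club-cell markers were lower there, 0 of them called. Epithelial markers in lung had a mean level of 0.54 to 1.73 in Stat6+/-, against 0.22 to 0.89 in Stat6-/-. The part of these cell types in the members' differences was not tested, and in bulk RNA more cells of a type cannot be told apart from more RNA per cell.

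A call means an adjusted p under 0.05 in a limma fit over all features. In perfusate, 4 of 69 tested members changed between Stat6+/- and Stat6-/- (background 3.07% of 15830 features): Chst5 and Galnt7 rose (background 1.09%), and Chst8 and B4galnt1 fell (background 1.98%). An unadjusted p under 0.05 was found for 20 of 69, and for 2045 of all 15830 features. The median difference of the members was 0.05, against -0.02 for all features. In whole lung, 7 of 67 members changed in the same comparison (background 5.01% of 15115): B4galnt1, B4galt1, B4galt5, Galnt7 and St3gal4 rose (background 3.30%), and Chst15 and Chst4 fell (background 1.71%). The median difference of the members was -0.23, against -0.04 for all features. Differences are relative to the shift that centring removed, 0.12 in perfusate and -0.37 in lung for this comparison. The calls made up 10.4% of tested members in lung and 5.80% in perfusate. Without the 2 lung arrays of low Y-linked signal, Chst15 alone of the 7 lung members stayed called (for Galnt7 the adjusted p was then 0.0688). In perfusate, without Stat6-/- replicates 10, 11 and 12, Galnt7 lost its call (0.85, adjusted p = 0.311) and the other 3 kept theirs. Without centring, the calls kept were Chst8 in perfusate and Chst15 and Chst4 in lung. Without the reference block they were Chst8 in perfusate and Galnt7 and St3gal4 in lung, and with the replicate block none of the 7 in lung.

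In the other comparisons the largest count was that against PBS. For Epi+ against Stat6-/- only Chst8 changed in perfusate, downward (background 0.474%, of which lower 0.322%, and 7 members with an unadjusted p under 0.05) and 0 of 67 in lung (background 0.0794%, 1 with an unadjusted p under 0.05). For Stat6+/- against Epi+ the count was 0 of 69 in perfusate (background 0.0379%, 7 unadjusted), and in lung Chst15 alone of 67 fell (background 3.55%, of which lower 1.09%, and 21 unadjusted). OVA against PBS gave 0 of 69 in perfusate (background 0.246%, 9 unadjusted) and 0 of 70 in lung (background 1.94%, 11 unadjusted). Each background is a share of adjusted calls, so the unadjusted counts cannot be set against it. Of all 15830 perfusate features, an unadjusted p under 0.05 was found for 1189 in Epi+ against Stat6-/-. The number was 1105 in Stat6+/- against Epi+ and 1457 in OVA against PBS. Against PBS in perfusate, 7 of 69 members (10.1%) changed with IL-13 in Stat6+/- animals (background 7.13%), 5 of them higher (background 2.89%) and 2 lower (background 4.24%). With Epi+ 2 changed (background 3.01%), B4galt1 higher (background 1.38%) and Chst8 lower (background 1.63%). Of the 7 in Stat6+/- animals, Chst8 and Gcnt1 kept their calls without centring, and Chst8 and B4galt1 without the reference block. With Stat6-/- the count was 0 (background 0.619%, 12 unadjusted). These perfusate comparisons share their Stat6+/-, Stat6-/- and PBS arrays.

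**Figure D1:**
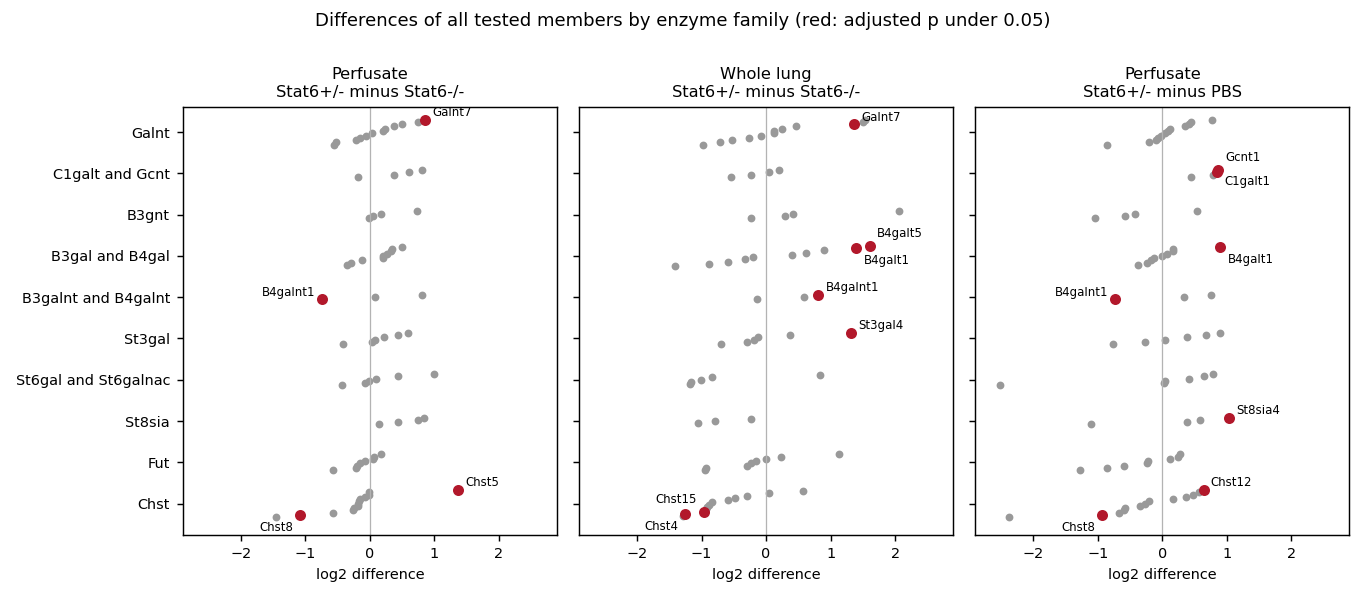
Log2 difference of every tested member (x axis) by enzyme family (rows), for Stat6+/- minus Stat6-/- in perfusate and in whole lung and for Stat6+/- minus PBS in perfusate. Each point is 1 gene, and red named points have an adjusted p under 0.05, 4 of 69, 7 of 67 and 7 of 69 members.

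The chain-starting enzymes were represented by 12 Galnt genes, and Galnt7 was the one that changed, in both tissues. Galnt7 acts on peptides that already carry GalNAc. It had 0.83, 1.65, 0.67, 1.24 and 2.02 on the Stat6+/- perfusate arrays, 0.72, 1.23, 0.58, 0.85 and 1.47 on the Epi+ arrays, and 0.17, 0.05, 0.40, 1.14 and 0.42 on the Stat6-/- arrays. Only Stat6-/- replicate 13, at 1.14, reached into the Stat6+/- range. The difference was 0.85 ± 0.22, a 1.80-fold rise (adjusted p = 0.0420), and Stat6+/- was higher in 5 of 5 reference preparations. This call is marginal: it was lost without each of 9 single arrays, all but Stat6+/- replicate 6 (differences 0.67 to 0.91, adjusted p 0.0515 to 0.161).

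Galnt7 separated more clearly in whole lung. Its levels were 0.84, 2.20, 0.71, 1.25 and 0.40 on the Stat6+/- arrays, -0.41, -0.06, 0.37, -0.19 and 0.67 on the Epi+ arrays, and -0.06, -0.79, -0.05, -0.13 and -0.35 on the Stat6-/- arrays. All Stat6+/- arrays lay above all Stat6-/- arrays, a difference of 1.36 ± 0.26 or 2.56-fold (adjusted p = 0.00873). It was 0.98 within reference pool 3 and 1.61 within pool 4. No single array ended the call, but without centring the difference was 0.99 (adjusted p = 0.204). Against PBS perfusate the Stat6+/- difference of 0.77 missed the threshold (adjusted p = 0.0558). With OVA it was 0.53 in perfusate (adjusted p = 0.497).

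Of the other Galnt genes named here, none passed. Galnt3, which glycosylates mucin and FGF23 peptides, differed by 0.75 ± 0.23 in perfusate (adjusted p = 0.104) and by 1.53 ± 0.50 in lung (adjusted p = 0.101) between Stat6+/- and Stat6-/-. In lung its Stat6+/- arrays spread from 0.13 to 3.72, against -0.16 to 0.64 on Stat6-/- arrays. Galnt6, a close relative of Galnt3, differed by 1.50 ± 0.43 in lung (adjusted p = 0.0705), with 4 Stat6+/- arrays giving a value.

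In IL-13 Stat6+/- perfusate 2 of the 4 core 1 and core 2 genes, C1galt1 and Gcnt1, were higher than in PBS (background 2.89%), and the family's median difference was 0.82, against -0.03 for all features. C1galt1, the core 1 synthase, had 0.03, 0.49, 0.35, 1.23 and 0.40 on the Stat6+/- arrays and -0.74, 0.08, -0.42, -0.39 and -0.29 on the PBS arrays. The groups overlapped at 1 array of each, Stat6+/- replicate 4 and PBS replicate 23. The difference was 0.85 ± 0.20, or 1.81-fold (adjusted p = 0.0118), and both of its spots passed alone, at 0.59 and 1.12 (adjusted p 0.0354 and 0.0152).

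C1galt1 was not shown to differ between genotypes, at 0.61 ± 0.20 for Stat6+/- minus Stat6-/- (adjusted p = 0.113). In lung its spots ran against each other across arrays (r = -0.48 over 15 arrays), and their mean is no firm measure there. C1galt1c1, the chaperone that C1galt1 needs to fold, differed from PBS by 0.44, 0.50 and 0.62 in Stat6+/-, Epi+ and Stat6-/- perfusate, none past the threshold (adjusted p 0.162, 0.135 and 0.110).

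Gcnt1, the core 2 branching enzyme of leukocytes and many tissues, was higher than PBS by 0.87 ± 0.16 (1.83-fold, adjusted p = 0.00305) as the mean of its 2 spots. Those spots did not move together (r = 0.08 over 25 perfusate arrays). One had -0.05, 0.10, 0.98, 1.02 and 1.00 on the Stat6+/- arrays, -0.32, -0.81, -0.13, -0.20 and -0.96 on the Stat6-/- arrays and -0.96, -0.48, -1.10, -0.39 and -0.73 on the PBS arrays. On this spot every Stat6+/- array lay above every Stat6-/- and PBS array, with differences of 1.09 ± 0.25 (adjusted p = 0.0188) and 1.34 ± 0.25 (adjusted p = 0.00312). The second spot differed by -0.36 and 0.40, and neither passed (adjusted p 0.649 and 0.376). Which transcript each spot reads was not tested. Gcnt3, the mucin-type core 2 enzyme of goblet cells, differed from Stat6-/- by 1.39 on one spot and 0.45 on the other (adjusted p 0.496 and 0.395).

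Among the galactosyltransferases that lengthen chains, B4galt1 rose in Stat6+/- animals, against PBS in perfusate and against Stat6-/- in lung. B4galt1 adds galactose to terminal GlcNAc. In perfusate it had 1.45, 0.92, 0.80, 1.16 and 0.70 on the Stat6+/- arrays, 1.15, 0.57, 0.93, 0.74 and 0.18 on the Epi+ arrays and 0.20, -0.12, 0.02, 0.28 and 0.12 on the PBS arrays. Stat6+/- did not overlap PBS, and the difference was 0.90 ± 0.15 (1.87-fold, adjusted p = 0.00127). No single array ended the call, and without centring the adjusted p was 0.0562. Epi+ was higher than PBS by 0.61 ± 0.15 (adjusted p = 0.0376), a call lost without each of Epi+ replicates 16 to 19 and PBS replicates 22 to 24 (adjusted p 0.0679 to 0.112). Stat6-/- arrays, at 0.99, 0.75, 0.19, 0.34 and 0.27, lay between, and Stat6+/- minus Stat6-/- was 0.50 (adjusted p = 0.0999).

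In whole lung B4galt1 had 1.37, 2.94, 2.12, 1.59 and 0.89 on the Stat6+/- arrays and 0.56, -0.45, -0.05, 0.92 and 0.91 on the Stat6-/- arrays. The lowest Stat6+/- array lay just inside the Stat6-/- range. The difference was 1.40 ± 0.33, or 2.65-fold (adjusted p = 0.0284), 1.75 within pool 3 and 1.17 within pool 4. It lost its call without each of Stat6-/- replicates 1, 2 and 4 and Stat6+/- replicates 3 and 4 (differences 1.17 to 1.39, adjusted p 0.0560 to 0.0758).

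B4galt5, which also makes lactosylceramide, was measured in lung only, since 7 of 25 perfusate arrays gave a value. It had -0.61, 1.62, 2.11, 0.38 and 1.65 on the Stat6+/- lung arrays and -1.49, 0.49, 0.41, -1.08 and -1.21 on the Stat6-/- arrays. The groups overlapped. Arrays on pool 3 averaged 1.88 and 0.45 in Stat6+/- and Stat6-/- lung, a difference of 1.43, and arrays on pool 4 averaged 0.47 and -1.26, a difference of 1.72. With the pool as a block it was 1.61 ± 0.33 (3.04-fold, adjusted p = 0.0136), and without the block the adjusted p was 0.194. B3gnt3, which extends core 1, differed by 2.06 ± 0.56 in lung (adjusted p = 0.0673) on 3 Stat6+/- arrays, and by 0.73 ± 0.24 in perfusate (adjusted p = 0.119). B3galt5, which makes type 1 chains, had lung levels from -4.80 to 3.50 on Stat6+/- arrays, and no comparison of it passed.

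B4galnt1 moved in opposite directions in the 2 tissues. It makes the gangliosides GM2 and GD2 and is no mucin enzyme. In perfusate it had -0.17, -0.26, 0.41, -0.42 and 0.41 on the Stat6+/- arrays, 0.60, -0.23, 0.70, -0.07 and 0.58 on the Epi+ arrays and 0.19, 0.36, 1.43, 0.63 and 1.03 on the Stat6-/- arrays. It fell by 0.74 ± 0.17 against Stat6-/- (1.67-fold, adjusted p = 0.0201), and Stat6+/- was lower in 5 of 5 preparations. It also fell against PBS, by 0.73 ± 0.17 (adjusted p = 0.0145). The first call was lost without each of Stat6+/- replicates 4 and 6 and Stat6-/- replicates 11 to 14 (differences -0.74 to -0.65, adjusted p 0.0504 to 0.0723), the second without PBS replicate 22 (-0.61, adjusted p = 0.0551).

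In whole lung B4galnt1 had 0.84, 1.19, -0.12, 1.00 and 0.42 on the Stat6+/- arrays and -0.25, -0.24, -0.27, 0.26 and -0.20 on the Stat6-/- arrays. It rose by 0.81 ± 0.19 (1.75-fold, adjusted p = 0.0303), 0.40 within pool 3 and 1.07 within pool 4. The call was lost in 9 of 16 alternatives. Without centring the difference was 0.44 (adjusted p = 0.515), and the adjusted p was 0.124 without the pool block, 0.221 with the replicate block and 0.134 without the arrays of low Y-linked signal. It was also lost without each of Stat6-/- replicates 1, 4 and 6 and Stat6+/- replicates 3 and 5 (adjusted p 0.0538 to 0.0827). On the lung OVA arrays it had 0.72, 0.66, 0.65, 0.62 and 0.72, against 0.28, 0.29, -0.03, 0.11 and -0.16 on the PBS arrays. These groups did not overlap, yet the difference of 0.58 ± 0.19 did not pass (adjusted p = 0.166).

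The difference between tissues was tested as an interaction over 40 arrays, and 3 of 64 members passed (background 4.50%, with 1.32% higher and 3.17% lower, median difference 0.30 against 0.02 for all features). B4galnt1 passed at -1.54 ± 0.25, perfusate minus lung (adjusted p = 0.000138). No single array ended this call, but without centring the difference was -1.05 (adjusted p = 0.184), 1 of 26 alternatives. The others were Chst4 at 1.18 ± 0.28 (adjusted p = 0.0116) and St8sia2 at 1.53 ± 0.38 (adjusted p = 0.0161), the last named after its values were seen. Each was lost in 3 of 26 alternatives. Chst4 was at 0.71 with quantile normalization (adjusted p = 0.151), 1.18 without the reference block (adjusted p = 0.0791) and 1.13 without the arrays of low Y-linked signal (adjusted p = 0.173). St8sia2 was at 1.35 with quantile normalization (adjusted p = 0.105), 1.40 without preparation 1.3 (adjusted p = 0.0506) and 1.43 without the arrays of low Y-linked signal (adjusted p = 0.153). For St8sia2, a polysialyltransferase of the developing brain, Stat6+/- minus Stat6-/- was 0.74 in perfusate and -0.79 in lung, neither past the threshold alone (adjusted p 0.153 and 0.146). The tissues also differ in array set, reference and amplification, which cannot be told apart from tissue. For the Epi+ effect 0 of 64 differed (background 0.104%, 3 with an unadjusted p under 0.05). Of the 64 members, 15 had a positive difference in both tissues, 18 a negative one in both, 20 were positive in perfusate only and 10 in lung only, and Fut11 was at 0.00 in lung.

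**Figure D2:**
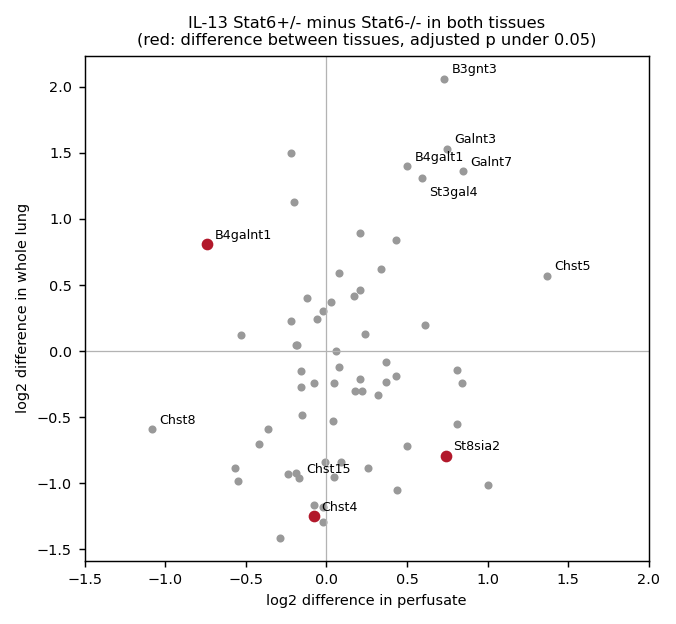
Log2 difference of Stat6+/- minus Stat6-/- in perfusate (x axis) and whole lung (y axis) for the 64 members tested in both, 1 point per gene. Red points are the 3 members whose difference between tissues passed, with B4galnt1 at -0.74 and 0.81, and grey named points are others discussed.

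Among sialyltransferases within a tissue, 1 of 6 St3gal genes rose in lung for Stat6+/- against Stat6-/- (background of higher calls 3.30%), and 1 of 4 St8sia genes rose in perfusate for Stat6+/- against PBS (background 2.89%), beside St8sia2 in the test between tissues. St3gal4, which caps galactose with sialic acid and feeds selectin ligands, had 0.31, 0.79, -0.11, 1.17 and 1.71 on the Stat6+/- lung arrays, 0.53, -0.17, 0.06, 0.53 and -0.50 on the Epi+ arrays and -0.68, -0.51, -0.36, -0.50 and -0.60 on the Stat6-/- arrays. Every Stat6+/- array lay above every Stat6-/- array, and the rise was 1.31 ± 0.31 (2.47-fold, adjusted p = 0.0296), 1.24 within pool 3 and 1.35 within pool 4. The call was lost without each of the 5 Stat6-/- arrays and Stat6+/- replicates 3, 5 and 6 (differences 1.08 to 1.34, adjusted p 0.0511 to 0.0696). In perfusate St3gal4 differed by 0.59 ± 0.22 from Stat6-/- and by 0.68 ± 0.22 from PBS (adjusted p 0.195 and 0.0617).

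St8sia4, the polysialyltransferase of immune cells and brain, rose in Stat6+/- perfusate against PBS. It had -0.81, 0.02, 1.07, 0.77 and 0.04 on the Stat6+/- arrays, -0.34, 0.66, 0.42, 1.15 and -0.34 on the OVA arrays and -0.97, -0.89, -0.81, -0.55 and -0.89 on the PBS arrays. The PBS arrays were tight, and Stat6+/- replicate 4 lay among them. The difference was 1.04 ± 0.30 (2.06-fold, adjusted p = 0.0391), lost without each of Stat6+/- replicates 6 to 8 and all 5 PBS arrays (differences 0.78 to 1.11, adjusted p 0.0570 to 0.123). All OVA arrays lay above all PBS arrays, at 1.13 ± 0.30, but this did not pass (adjusted p = 0.158). T-cell markers gave 1 call of 5 for Stat6+/- against PBS, with a mean level of -0.16 to 1.39 on Stat6+/- arrays and -0.86 to 0.23 on PBS arrays, and their part in St8sia4 was not tested. St6galnac1, the enzyme of sialyl-Tn, differed by 1.00 ± 0.39 between Stat6+/- and Stat6-/- perfusate and by 1.06 ± 0.45 between OVA and PBS (adjusted p 0.243 and 0.475). St3gal1 and St6gal1 had no comparison past the threshold.

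None of the 8 fucosyltransferases tested in each fit was called in the genotype, OVA or PBS comparisons. For Stat6+/- against Stat6-/-, the share of all features called was 3.07% in perfusate and 5.01% in lung. A count of 0 of 8 lies near these shares. In that comparison an unadjusted p under 0.05 was found for 0 of 8 in either tissue. Fut8, which adds the core fucose of N-glycans, came nearest: it had -0.62, -0.26, -0.76, -0.62 and -0.88 on Stat6+/- perfusate arrays and -0.30, 0.13, -0.09, -0.06 and 0.14 on PBS arrays, a difference of -0.59 ± 0.20 (adjusted p = 0.0749). Fut2, the secretor enzyme that marks goblet-cell mucins, gave a value on 16 of 25 perfusate and 7 of 15 lung IL-13 arrays, from -1.52 to 3.72 in perfusate. Its levels are too sparse to order the groups. Fut4-ps1 is annotated as a transcribed pseudogene, and whether its spot shares signal with that of Fut4 was not tested.

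The sulfotransferases held the steadiest result of the set. Chst8 adds sulfate to terminal GalNAc, as on pituitary hormones. In perfusate it had -0.72, -0.48, -0.12, -0.54 and -0.67 on the Stat6+/- arrays, -0.19, -0.13, 0.31, -0.26 and -0.49 on the Epi+ arrays, 0.39, 0.07, 0.93, 0.86 and 0.60 on the Stat6-/- arrays, and 0.26, 0.09, 0.74, 0.61 and 0.43 on the PBS arrays. No Stat6+/- array reached any Stat6-/- or PBS array, and Epi+ lay between. Chst8 fell by 1.08 ± 0.15 against Stat6-/- (2.11-fold, adjusted p = 0.000362) and by 0.93 ± 0.15 against PBS (1.91-fold, adjusted p = 0.000909). Both calls were kept in every alternative run, 16 and 15.

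In Epi+ perfusate Chst8 was lower than in Stat6-/- by 0.72 ± 0.15 (1.65-fold, adjusted p = 0.0372) and lower than in PBS by 0.58 ± 0.15 (adjusted p = 0.0460), in 5 of 5 preparations each. These calls were lost without each of 9 of 10 single arrays, the exceptions being Stat6-/- replicate 11 and PBS replicate 23 (adjusted p 0.0534 to 0.156 and 0.0545 to 0.116). Stat6+/- minus Epi+ was -0.36 ± 0.15 (adjusted p = 0.641). OVA perfusate arrays, at -0.20, -0.06, 0.75, -0.24 and 0.19, differed from PBS by -0.34 ± 0.15 (adjusted p = 0.503). In lung Chst8 spread from -2.73 to 0.42 on Stat6+/- arrays and was not called. By group means over the 5 perfusate groups, the member most like Chst8 was B4galnt1 (r = 0.980), followed by Galnt15 and Chst10 (0.833 and 0.819), a description over 5 points that share the arrays.

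Chst5, a GlcNAc 6-sulfotransferase, rose in Stat6+/- perfusate. It had 0.14, -0.71, 0.82, -0.40 and 1.06 on the Stat6+/- arrays, -0.75, -0.70, 0.17, -0.67 and 0.33 on the Epi+ arrays and -2.05, -0.69, 0.01, -2.20 and -0.98 on the Stat6-/- arrays. The ranges overlapped, and within preparations Stat6+/- was higher in 5 of 5, by 0.30 to 2.19. The difference was 1.37 ± 0.31 (2.58-fold, adjusted p = 0.0158). It lost its call without each of Stat6+/- replicate 8 and Stat6-/- replicates 10, 13 and 14 (differences 1.15 to 1.26, adjusted p 0.0583 to 0.0610), and without the preparation block (adjusted p = 0.138). Against PBS it was not called. The group means most like Chst5 were those of Galnt3, B3galt4 and Galnt7 (r = 0.924, 0.914 and 0.895 over 5 groups), and those most like Galnt7 were Galnt10, Gcnt3 and St8sia2 (0.985, 0.944 and 0.938). For B4galnt1 they were Chst8, Galnt15 and St3gal5 (0.980, 0.804 and 0.782).

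**Figure D3:**
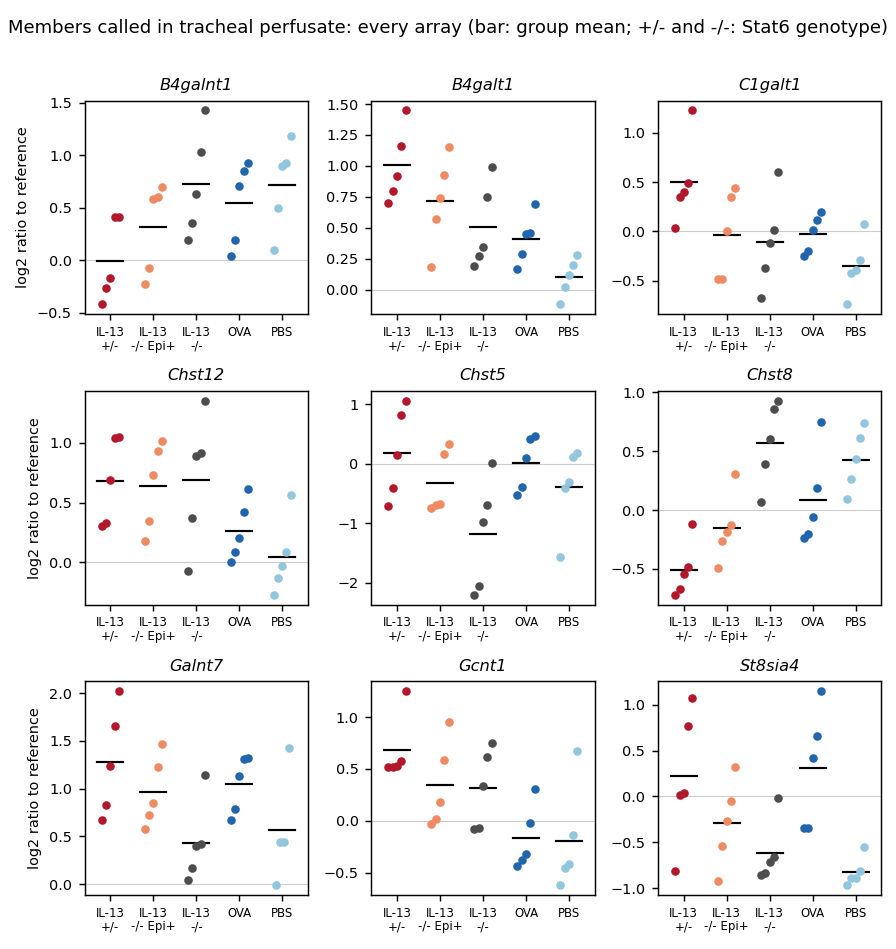
Log2 ratio to reference (y axis) on every perfusate array for the 9 members called in perfusate, with groups from IL-13 Stat6+/- to PBS on the x axis, 1 point per array and a bar at the mean. Chst8 lies below 0 on all 5 Stat6+/- arrays and above 0 on all 5 Stat6-/- and PBS arrays.

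Other sulfotransferases changed in lung, and downward. Of 12 tested Chst genes, 2 fell in Stat6+/- against Stat6-/- (background of lower calls 1.71%). An unadjusted p under 0.05 was found for 8, not set against a share over all features. The median difference was -0.86, against -0.04 for all features. Chst4, which makes the L-selectin ligand of high endothelial venules, had -1.35, -1.59, -0.29, -2.11 and -0.62 on the Stat6+/- arrays and 0.14, 0.36, -0.13, 0.08 and -0.15 on the Stat6-/- arrays. The groups did not overlap, and Chst4 fell by 1.25 ± 0.27 (2.38-fold, adjusted p = 0.0179), by 0.57 within pool 3 and 1.71 within pool 4. The call was lost without Stat6-/- replicate 1 (-1.15, adjusted p = 0.0535). In perfusate its arrays of both groups lay between -0.12 and 0.21. Endothelial markers were lower alongside, 2 of 4 called with a median difference of -0.86, and their part in Chst4 was not tested.

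Chst15, which makes the doubly sulfated unit of chondroitin sulfate E, had -0.22, -0.92, -0.83, -0.56 and -0.50 on the Stat6+/- lung arrays, -0.39, 0.13, 0.68, -0.18 and 0.43 on the Epi+ arrays and 0.46, -0.33, 0.24, 0.84 and 0.53 on the Stat6-/- arrays. It fell by 0.96 ± 0.21 against Stat6-/- (1.94-fold, adjusted p = 0.0194), by 0.62 within pool 3 and 1.18 within pool 4, and only Stat6-/- replicate 2 lay inside the Stat6+/- range. Against Epi+ it fell by 0.84 ± 0.21 (adjusted p = 0.0492). The first call was lost without each of Stat6-/- replicates 4 and 5 (-0.90 and -0.88, adjusted p 0.0573 and 0.0513). The second was lost without each of Epi+ replicates 2, 3, 4 and 6 and Stat6+/- replicates 3 to 5 (adjusted p 0.0727 to 0.122).

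Chst12, a chondroitin 4-sulfotransferase, had 1.05, 0.69, 0.33, 1.04 and 0.30 on Stat6+/- perfusate arrays and 0.09, -0.03, -0.13, 0.56 and -0.27 on PBS arrays. It rose by 0.64 ± 0.18 (1.56-fold, adjusted p = 0.0381), a call lost without each of 9 single arrays, all but PBS replicate 25 (adjusted p 0.0562 to 0.110). Epi+ and Stat6-/- perfusate differed from PBS by a like amount, 0.60 and 0.65, neither past the threshold (adjusted p 0.0807 and 0.101).

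**Figure D4:**
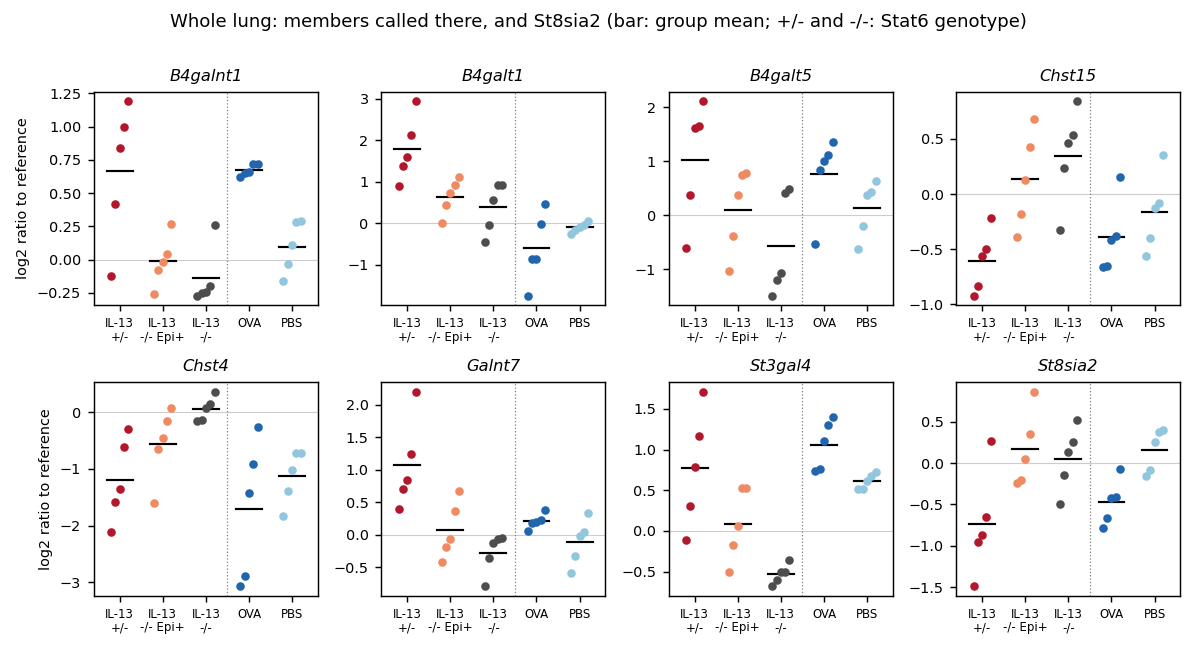
Log2 ratio to reference (y axis) on every lung array for the 7 members called in lung and St8sia2, by group (x axis), 1 point per array and a bar at the mean. The dotted line parts the arrays of the 2 platforms; Galnt7, St3gal4 and Chst4 separate all Stat6+/- from all Stat6-/- arrays.

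**Figure D5:**
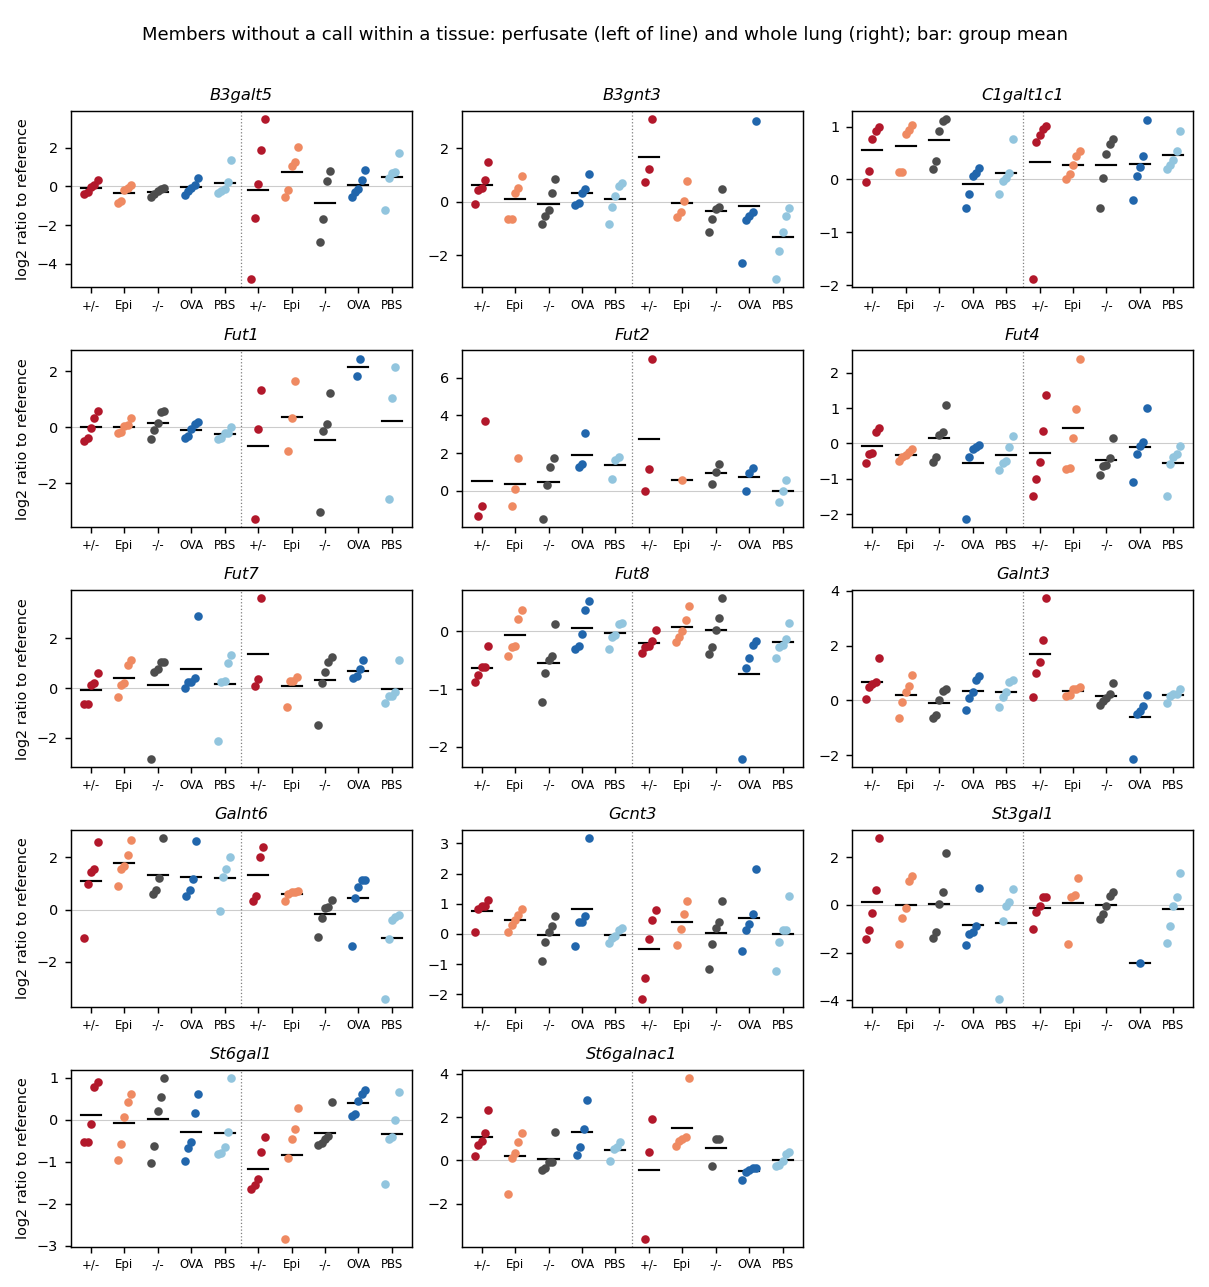
Log2 ratio to reference (y axis) on every array for the 14 named members without a call within a tissue, with perfusate groups left and lung groups right of the line (x axis) and a bar at the mean. Fut2, Fut7, B3galt5 and St3gal1 spread over several log2 units within groups, such as -4.80 to 3.50 for B3galt5 on Stat6+/- lung arrays.

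Few other genes of the glycan pathway were called. In perfusate Stat6+/- against Stat6-/- (background 3.07%), 3 of 12 mucin core proteins rose, Muc5ac, Muc5b (0.68) and Muc4 (0.62). Of 23 genes that supply sugar and sulfate donors 1 rose, Uap1 (0.68, adjusted p = 0.0179), which makes UDP-GlcNAc, and 8 had an unadjusted p under 0.05. Among all 15830 features 2045 had an unadjusted p under 0.05. Of 10 N-glycan genes 1 fell, Mgat3 (-0.67, adjusted p = 0.00832), which adds the bisecting GlcNAc. Of 11 Golgi donor transporters, 20 heparan and chondroitin chain enzymes, 19 lysosomal glycan-removal enzymes and 9 other Golgi transferases, limma called 0, with 0, 1, 0 and 0 at an unadjusted p under 0.05.

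In lung 3 of 10 mucins rose in the same comparison (background 5.01%), Muc5ac, Muc5b (2.85) and Muc4 (1.61). Mgat3 fell there too (-1.37, adjusted p = 0.0483), 1 of 11 N-glycan genes. One gene each rose among 11 transporters, 19 chain enzymes and 18 lysosomal enzymes: Slc35b1 (0.68, adjusted p = 0.0450), Ext1 (0.76, adjusted p = 0.0483), a heparan sulfate polymerase, and Gusb (1.92, adjusted p = 0.00189), a lysosomal glucuronidase. An unadjusted p under 0.05 was found for 1 of the 11 transporters, 3 of the 19 chain enzymes and 8 of the 18 lysosomal enzymes, and the median difference of the lysosomal enzymes was 0.42, against -0.04 for all features. Of 23 donor-supply genes and 9 other Golgi transferases limma called 0, with 6 and 2 at an unadjusted p under 0.05. With OVA, Muc5ac rose by 2.81 ± 0.31 in perfusate (adjusted p = 0.000181) and by 4.00 ± 0.57 in lung (adjusted p = 0.00926), while 0 members were called in either tissue.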

How the data were processed

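As deposited, each spot of an array holds a log2 ratio made by the authors. The sources used here do not give its scanner, background correction or normalization. Array medians ran from -0.96 to 0.30, so each array was centred on its median. Between 15693 and 18655 spots per array had a value. Precision is limited by how many arrays there are. Per the labels, perfusate RNA had 1 round of amplification, not stated for 3 arrays of preparation 1.3, and lung RNA had none. Spots of 1 symbol were averaged, and 12 members on the larger and 7 on the smaller platform had 2 spots. Gene symbols are those of the platform annotation, brought up to date with RefSeq (GRCm38.p6).

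Linear models (limma 3.58.1, R 4.3.3) were fitted by exact least squares to 25 perfusate arrays with the 5 reference preparations as a block, 15 lung IL-13 arrays with pools 3 and 4 as a block, 10 lung OVA and PBS arrays, and 40 arrays for the tissue difference. Features needed 3 values in every group, and p-values were adjusted by Benjamini-Hochberg over all features. Tested on simulated data, shifts of 1 and 2 were called for 41.0% and 85.0% of genes in perfusate, and for 18.0% and 68.0% in lung, for Stat6+/- against Stat6-/-. For lung OVA against PBS the shares were 17.0% and 63.0%, and for the tissue difference 6.00% and 53.0%. The shifts were added only to features with a value on every array. The simulated spread was taken about group means, with no reference effect.

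The members, the gene lists and the named genes were chosen with earlier results of these data known. Named are the members called within a tissue and a list of mucin-type enzymes, where measured. Alternatives were no centring, quantile normalization, spots kept by accession, complete genes only, no reference block, the replicate block, arrays of preparation 1.3 or of low Y-linked signal left out, and each array left out in turn.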

Additional observations from a re-analysis of the deposited data

Results flagged for a closer look

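One array stood apart from the other arrays of its group by Dixon's test in 23 of 247 groups of 4 or 5 values, over the named members, and chance flags about 1 in 20. Values are log2 ratios.

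In perfusate, Gcnt1 was at 1.25 on Stat6+/- replicate 7, against 0.52 to 0.58 on the others. Gcnt3 was at 0.05 on Stat6+/- replicate 6 (others 0.81 to 1.11) and at 3.17 on OVA replicate 31 (others -0.41 to 0.59). Fut7 was at -2.86 on Stat6-/- replicate 11 (others 0.63 to 1.06) and at 2.91 on OVA replicate 29 (others 0.01 to 0.42). On that OVA array Fut4 was at -2.14 (others -0.38 to -0.05). St8sia4 was at -0.02 on Stat6-/- replicate 11 (others -0.86 to -0.66), and St6galnac1 at 1.33 on Stat6-/- replicate 14 (others -0.46 to -0.07). Among PBS arrays St3gal1 was at -3.94 on replicate 23 (others -0.67 to 0.65) and St6gal1 at 0.99 on replicate 25 (others -0.81 to -0.29).

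In whole lung, C1galt1c1 was at -1.89 on Stat6+/- replicate 5 (others 0.71 to 1.01). On Epi+ arrays Fut7 was at -0.75 on replicate 6 (others 0.28 to 0.45), St6galnac1 at 3.81 on replicate 6 (others 0.66 to 1.09) and Galnt6 at 0.33 on replicate 4 (others 0.61 to 0.70). On Stat6-/- arrays B4galnt1 was at 0.26 on replicate 5 (others -0.27 to -0.20), Chst8 at -1.08 on replicate 4 (others -0.31 to -0.17) and St6gal1 at 0.41 on replicate 2 (others -0.61 to -0.39). On OVA replicate 5, B4galt5 was at -0.53 (others 0.83 to 1.35), Fut8 at -2.21 (others -0.63 to -0.16) and Galnt6 at -1.41 (others 0.46 to 1.15). C1galt1 was at -0.80 on OVA replicate 6 (others 0.10 to 0.43). Among PBS arrays Fut7 was at 1.11 on replicate 1 (others -0.62 to -0.16) and Galnt6 at -3.42 on replicate 4 (others -1.13 to -0.22).

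The effect of Stat6+/- against Stat6-/- differed between perfusate and lung by the interaction test for B4galnt1 (-1.54), Chst4 (1.18) and St8sia2 (1.53).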

How the results depend on the processing

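No named result reversed its direction under any alternative. Without centring, perfusate gave 1 called member when Stat6+/- was set against Stat6-/-, 0 when Epi+ was, 2 when Stat6+/- was set against PBS and 0 when Epi+ was, while lung gave 3 for Stat6+/- against Stat6-/- and 0 when Epi+ took the place of Stat6-/-. Without the reference block these counts were 1, 0, 2, 0, 2 and 0. Without preparation 1.3, perfusate gave 2 members for Stat6+/- and 0 for Epi+ when set against Stat6-/-, and 0 for Epi+ when set against PBS. Quantile normalization in perfusate gave 0 for Epi+ against Stat6-/- and 1 for Stat6-/- set against PBS, then 0 for Stat6+/- against Epi+ in lung and 1 for the tissue difference of Stat6+/- against Stat6-/-. For Stat6+/- against Epi+ in lung, spots kept by accession gave 0 and complete genes gave 5. Without the 2 lung arrays of low Y-linked signal 1 member, Chst15, stayed called for Stat6+/- against Stat6-/-. The causes were not tested, beyond fewer arrays where arrays were left out.

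Leaving out 1 array at a time gave 1 to 4 members in perfusate for Stat6+/- against Stat6-/-, 0 to 1 for Epi+ against Stat6-/-, 5 to 9, 0 to 2 and 0 to 2 for Stat6+/-, Epi+ and Stat6-/- against PBS, and 0 throughout for Stat6+/- against Epi+ and OVA against PBS. In lung it gave 3 to 13 for Stat6+/- against Stat6-/- (13 without Stat6+/- replicate 1), 0 to 7 for Stat6+/- against Epi+ (7 without the same array), and 0 for Epi+ against Stat6-/- and OVA against PBS. The tissue differences gave 3 to 6 for Stat6+/- and 0 for Epi+.

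The labels do not say whether replicate numbers pair the lung arrays. Same-numbered arrays had correlations of -0.58 to 0.40 in 12 IL-13 pairs, 7 of them over 0.1. In 4 OVA and PBS pairs they were -0.18 to 0.01. Of 15 IL-13 arrays 2, and of 8 OVA and PBS arrays 0, correlated best with their own number. These correlations do not settle the pairing. For the IL-13 arrays, differences between reference pools were left in them. The OVA and PBS arrays all used pool 2, and none of their 4 pairs had a correlation over 0.1. With the replicate block, lung Stat6+/- gave 0 called members when set against Stat6-/-, and likewise 0 when set against Epi+. Perfusate arrays share no replicate numbers. Intensities were not used, so signal over background limits these values to an unknown degree.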
